A study of Mus musculus with 18 samples.

Results

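The 8 genes Fscn1, Cacnb3, Cd83, Samsn1, Marcksl1, Tmem123, H2-M2 and Osbpl3 are transcripts associated with mature migratory dendritic cells, and their levels are described here in all 18 libraries of the series, as 8 of the 49585 genes in the count table. They were selected on measured values of these same libraries, and which comparison chose them is not recorded, so their values are given as a description in every comparison, with no test of their own. The libraries fall into 6 groups of 3. All mice were of the Kaede strain, whose cells carry a fluorescent protein that turns from green to red under violet light, and were 6 to 10 weeks old. In the inflamed groups the mice received ovalbumin-specific Th1 cells polarized in vitro from OT-II CD45.1 donors, were immunized with 100 μg ovalbumin in complete Freund's adjuvant, and after 10 days were challenged with 100 μg heat-aggregated ovalbumin in the footpad (joint) or the ear pinna (skin). The inflamed site was photoconverted 3 days after challenge and tissue was taken 24 hours later. Viable CD45+ Kaede red+ leukocytes were then sorted from the inflamed tissue (joint nonmigrated, skin nonmigrated) or from the draining lymph node (joint migrated, skin migrated). Each inflamed library was a pool of 8 to 18 male and female mice. The remaining pair of groups, the joint and skin steady-state nodes, are labelled as CD45+ leukocytes that had moved from joint or ear to the node at steady state. The titles of the former hold PBS and the letters KG, which the labels do not explain, and those of the latter the word naive. The labels carry 1 protocol text for all 18 libraries, which describes the red+ sort and a PBS challenge as the control, and it does not say which steps the steady-state mice went through. With high B cell and low dendritic cell marker levels, given further on, whether these libraries hold photoconverted cells is not settled here. How many mice each held is not given in the sources used here.

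Dendritic cells sample antigen in peripheral tissue, and on maturation they stop capturing antigen, raise MHC class II and costimulatory ligands, gain the chemokine receptor CCR7 and travel through lymphatic vessels to the draining node. There they present antigen to T cells. The change in shape that goes with it, from a sampling cell to one with long dendrites, rests on the actin cytoskeleton, and Fscn1, which encodes the actin-bundling protein fascin, is a widely used marker of that state. Of the other genes, Marcksl1 encodes an actin-binding relative of the MARCKS protein, Cacnb3 a β subunit of voltage-gated calcium channels, Cd83 a membrane glycoprotein of activated antigen-presenting cells and B cells, and H2-M2 a nonclassical MHC class I molecule. Samsn1 encodes an SH3-domain adaptor studied in lymphocytes, Tmem123 a mucin-like membrane receptor also called porimin, and Osbpl3 an oxysterol-binding-protein relative that acts in lipid transfer and cell adhesion.

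The genes lie on 8 different chromosomes. In GRCm38 coordinates (GENCODE M21), Fscn1 (ENSMUSG00000029581) spans bases 142960343 to 142973185 of chromosome 5, Cacnb3 (ENSMUSG00000003352) 98630840 to 98644529 of chromosome 15, and Cd83 (ENSMUSG00000015396) 43784775 to 43803132 of chromosome 13. Marcksl1 (ENSMUSG00000047945) spans 129513581 to 129515985 of chromosome 4, Tmem123 (ENSMUSG00000050912) 7764041 to 7794333 of chromosome 9, and Osbpl3 (ENSMUSG00000029822) 50293330 to 50456201 of chromosome 6. Samsn1 (ENSMUSG00000022876) spans 75858793 to 76022281 of chromosome 16, and H2-M2 (ENSMUSG00000016283) 37480851 to 37483552 of chromosome 17, in the MHC. No exon of any of them overlaps an exon of another annotated gene.

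To show what sequence lies before genes that were high together in migrated cells, the 250 bases before their RefSeq start sites (GRCm38.p6) were searched on both strands for 5 short motifs. There were 9 such windows for 7 genes: Cacnb3 and Tmem123 have a pair each, and Cd83 was not matched. The motifs were the kappaB consensus of NF-kB proteins, the AP-1 site TGANTCA, the cyclic AMP response element TGACGTCA, the PU.1 site GAGGAAGT and the TATA element TATAAA. No motif was shared by any pair of these genes. The windows of Fscn1, Samsn1 and H2-M2, which hold the matches, are shown with the matches in capitals. In Fscn1 the capitals mark the cyclic AMP response element, which reads the same on both strands, starting 45 bases before the start site, and the TATA element at 31 bases. In Samsn1, whose RefSeq start lies inside the annotated span of the gene, they mark a PU.1 site on each strand, at 50 and 30 bases. In H2-M2 they mark a kappaB match on each strand, at 180 and 146 bases.
Fscn1, chr5:142960105-142960354, plus strand: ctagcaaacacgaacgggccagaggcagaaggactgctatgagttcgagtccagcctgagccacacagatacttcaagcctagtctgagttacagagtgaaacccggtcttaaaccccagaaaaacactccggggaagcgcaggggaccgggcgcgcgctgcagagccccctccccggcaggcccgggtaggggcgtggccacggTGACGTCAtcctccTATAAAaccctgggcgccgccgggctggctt
Samsn1, chr16:75909267-75909516, minus strand: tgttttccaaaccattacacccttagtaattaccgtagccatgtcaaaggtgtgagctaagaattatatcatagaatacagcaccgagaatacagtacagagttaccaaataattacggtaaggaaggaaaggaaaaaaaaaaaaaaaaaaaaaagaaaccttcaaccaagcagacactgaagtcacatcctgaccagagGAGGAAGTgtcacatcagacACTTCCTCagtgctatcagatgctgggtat
H2-M2, chr17:37483555-37483804, minus strand: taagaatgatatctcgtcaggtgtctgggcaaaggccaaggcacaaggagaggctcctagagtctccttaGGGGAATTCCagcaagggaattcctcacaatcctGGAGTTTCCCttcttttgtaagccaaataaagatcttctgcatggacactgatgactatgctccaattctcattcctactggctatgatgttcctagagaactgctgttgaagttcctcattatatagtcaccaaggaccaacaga
Of 27025 genes with such windows, 8.2% held a kappaB match, 7.8% an AP-1 site, 1.8% a cyclic AMP response element, 2.8% a PU.1 site and 14.3% a TATA element. The windows also differed in base composition. G and C made up 62.4% of the Fscn1 window, with 18 CpG pairs, but 44.8% of that of H2-M2 and 38.4% of that of Samsn1, with 1 and 3 pairs, against a median of 52.4% and 6 pairs over all windows. These matches are letters in a window and were not tested as binding sites.

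Levels are given as CPM, counts scaled to a common library total with TMM factors over all 18 libraries, whose totals ran from 19239531 to 43814403 assigned counts. The skin libraries from inflamed mice held 19239531 to 22528895, and every other library at least 28577566, so depth goes with site among the inflamed groups and cannot be told apart from it there. A count of 3, taken as the floor, equals 0.0616 to 0.180 CPM and covers counting error only. Every library of every gene was above it, the lowest being 5 counts of H2-M2 in a joint steady-state node. Library pairs within a group correlated with r from 0.972 to 0.998 across genes, lowest in skin nonmigrated cells.

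The sort gate holds all CD45+ cells, so markers of each cell type were summed. The conventional dendritic cell markers Zbtb46, Flt3 and Itgax together came to 181 to 278 CPM in joint nonmigrated, 277 to 364 in skin nonmigrated, 260 to 515 in joint migrated and 457 to 606 in skin migrated libraries, but to only 19.5 to 25.1 CPM in the steady-state nodes. Markers of type 2 conventional dendritic cells (5 genes) summed to 1635 to 1825, 1110 to 2221, 253 to 478 and 387 to 490 CPM in the same 4 inflamed groups. Their sum was thus lower in migrated cells. Sirpa made up most of it in tissue, with means of 1433 CPM in joint nonmigrated and 1218 in skin nonmigrated cells, against 129 and 187 in migrated ones. Irf4 went the other way, from 108 to 225 CPM in joint and from 44.9 to 222 in skin, and the other genes of the list were lower in migrated cells. Type 1 markers (5 genes) summed to 31.5 to 40.9, 34.3 to 82.8, 38.2 to 79.7 and 67 to 87.8 CPM. Of these, mean Batf3 was higher in migrated cells, at 49.3 against 13.1 CPM in joint and 66.2 against 12.7 in skin. Mean Tlr3 was lower there, at 1.83 against 13.1 and 1.37 against 13.7. Neither sum thus follows all genes of its list. Summed B cell markers (5 genes) were 3724 to 4024 CPM in joint and 2413 to 3247 in skin steady-state nodes, 630 to 879 in joint migrated, 106 to 190 in skin migrated, 102 to 260 in joint nonmigrated and 4.56 to 11.4 in skin nonmigrated libraries. Neutrophil markers (6 genes) were 4964 to 15250 CPM in joint nonmigrated and 1419 to 2498 in skin nonmigrated libraries, and 12.4 to 86.1 in migrated ones. Monocyte and macrophage markers (7 genes) were 5473 to 8133, 1841 to 6005 and 263 to 504 CPM in the same order. T cell markers (4 genes) were at 109 to 174 CPM in joint nonmigrated and 184 to 530 in skin nonmigrated libraries, and at 680 to 1067 in all node libraries. Non-leukocyte markers (5 genes) reached 282 CPM in tissue and 4.5 in nodes, where Krt5 and Krt14 were at the floor. Langerhans cell markers (2 genes) reached at most 12 CPM in any library, and plasmacytoid dendritic cell markers (2 genes) at most 81.6 CPM. In such bulk samples, fewer cells of a type and less RNA per cell cannot be told apart, and the part that these marker differences have in the results that follow was not tested.

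Fscn1 had the widest range of the 8 genes. Its 3 replicates were at 1164, 2980 and 3112 CPM in joint migrated and at 2461, 3572 and 3640 CPM in skin migrated cells. In tissue it was at 16.8, 27 and 22.6 CPM in joint nonmigrated and at 325, 531 and 116 CPM in skin nonmigrated cells. In steady-state nodes it was at 2.74, 2.82 and 2.73 CPM (joint) and 5.9, 5 and 4.8 CPM (skin). The migrated groups overlapped each other, and every other neighbouring pair of groups was separate, in the order skin and joint migrated, skin nonmigrated, joint nonmigrated, skin node, joint node. Per kilobase of exon, Fscn1 was at rank 25 of all genes in skin migrated and rank 37 in joint migrated cells, at 512 and 5916 in skin and joint nonmigrated cells and at 9835 and 11218 in the skin and joint nodes.

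Cacnb3 followed the same order as Fscn1 in inflamed mice. It was at 526, 1216 and 1322 CPM in joint migrated and 1167, 1669 and 1588 CPM in skin migrated cells, at 13.8, 16.8 and 15.5 CPM in joint nonmigrated and 189, 283 and 71.1 CPM in skin nonmigrated cells. Its steady-state levels were 4.32, 5.35 and 4.73 CPM (joint) and 5.07, 4.28 and 3.39 CPM (skin). Unlike Fscn1, the steady-state groups overlapped. Library by library, the ratio of Fscn1 to Cacnb3 CPM was 2.34 ± 0.119 (SD, n = 3) in joint migrated and 2.18 ± 0.098 in skin migrated cells, and 1.42 ± 0.195 and 1.75 ± 0.124 in joint and skin nonmigrated cells. Skin nonmigrated replicate 3, the lowest of its group for both genes, and joint migrated replicate 1, the lowest of its group for both, held them in nearly the ratio of their group's other libraries (1.64 and 2.21).

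Marcksl1, the other actin-related gene, was at 341, 744 and 808 CPM in joint migrated and 665, 887 and 933 CPM in skin migrated cells. In tissue it was at 198, 254 and 283 CPM (joint) and 226, 297 and 264 CPM (skin), so here the nonmigrated groups of both sites overlapped. Steady-state nodes held 56.3, 66.8 and 81.7 CPM (joint) and 50.7, 39.5 and 34.7 CPM (skin). Joint migrated replicate 1, the lowest migrated library, lay nearest to the nonmigrated ones.

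H2-M2 was below 1 CPM in the steady-state nodes, and close to the detection floor in the joint node. It was at 44.7, 55.1 and 74.1 CPM in joint migrated and 94.3, 105 and 101 CPM in skin migrated cells. In tissue it was at 1.23, 1.4 and 2.53 CPM (joint) and 3.12, 4.21 and 3.27 CPM (skin), and in the nodes at 0.111, 0.221 and 0.2 CPM (joint) and 0.673, 0.903 and 0.764 CPM (skin), which rests on 5 to 9 counts a library in the joint node and 25 to 39 in the skin node. All 6 groups were separate from their neighbours in order of level. The ratio of Fscn1 to H2-M2 CPM was 104, 126 and 35.5 in skin nonmigrated libraries, 13.6, 19.4 and 8.93 in joint nonmigrated ones, 26.1, 54.1 and 42 in joint migrated ones and 26.1, 34.1 and 36 in skin migrated ones. Replicates 1 and 2 of skin nonmigrated cells lay above every other library in this ratio, and replicate 3 lay among the migrated ones.

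Cd83 did not follow the others. It was at 179, 243 and 431 CPM in joint migrated and 254, 249 and 359 CPM in skin migrated cells, but also at 218, 271 and 339 CPM in joint nonmigrated cells and at 195, 235 and 269 CPM in the joint node. Each of these 4 groups overlapped with its neighbour in order of level. The skin node, at 153, 111 and 114 CPM, and skin nonmigrated cells, at 96.8, 122 and 50.8 CPM, lay below them and overlapped with each other. Cd79a, the B cell receptor chain, was at 1192 ± 169 CPM (SD, n = 3) in the joint node, 852 ± 190 in the skin node, 44.2 ± 23.8 in joint nonmigrated and 1.12 ± 0.649 in skin nonmigrated cells, and the part of B cells in the Cd83 levels was not tested.

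Per kilobase, Tmem123 lay near Fscn1 in migrated cells, at 646 against 803 CPM per kilobase in joint and 1010 against 1070 in skin, but unlike Fscn1 it was abundant in every group. Its level was at 1218, 2232 and 2576 CPM in joint migrated and 2714, 3117 and 3592 CPM in skin migrated cells, with no overlap between them. In tissue it was at 268, 261 and 276 CPM (joint) and 735, 804 and 458 CPM (skin), and in the nodes at 354, 343 and 343 CPM (joint) and 250, 269 and 275 CPM (skin). Per kilobase it was at rank 29 in skin migrated and 48 in joint migrated cells, and at rank 582 in joint nonmigrated cells.

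Samsn1 was at 242, 395 and 477 CPM in joint migrated and 475, 583 and 593 CPM in skin migrated cells, and at 330, 408 and 151 CPM in skin nonmigrated cells, which overlapped with the joint migrated ones. Joint nonmigrated cells held 60.7, 75.6 and 110 CPM, the joint node 55.6, 63.4 and 73.2 CPM and the skin node 40.8, 39 and 37.9 CPM. Osbpl3 varied little between replicates in migrated cells. It was at 115, 123 and 124 CPM in joint migrated, 139, 149 and 146 CPM in skin migrated, 37.1, 36.4 and 38.6 CPM in joint nonmigrated and 59.8, 81.2 and 45.8 CPM in skin nonmigrated cells. In the nodes Osbpl3 lay at 15.7, 13.5 and 14.7 CPM (joint) and 13.6, 14.4 and 14.1 CPM (skin), which overlapped.

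**Figure D1:**
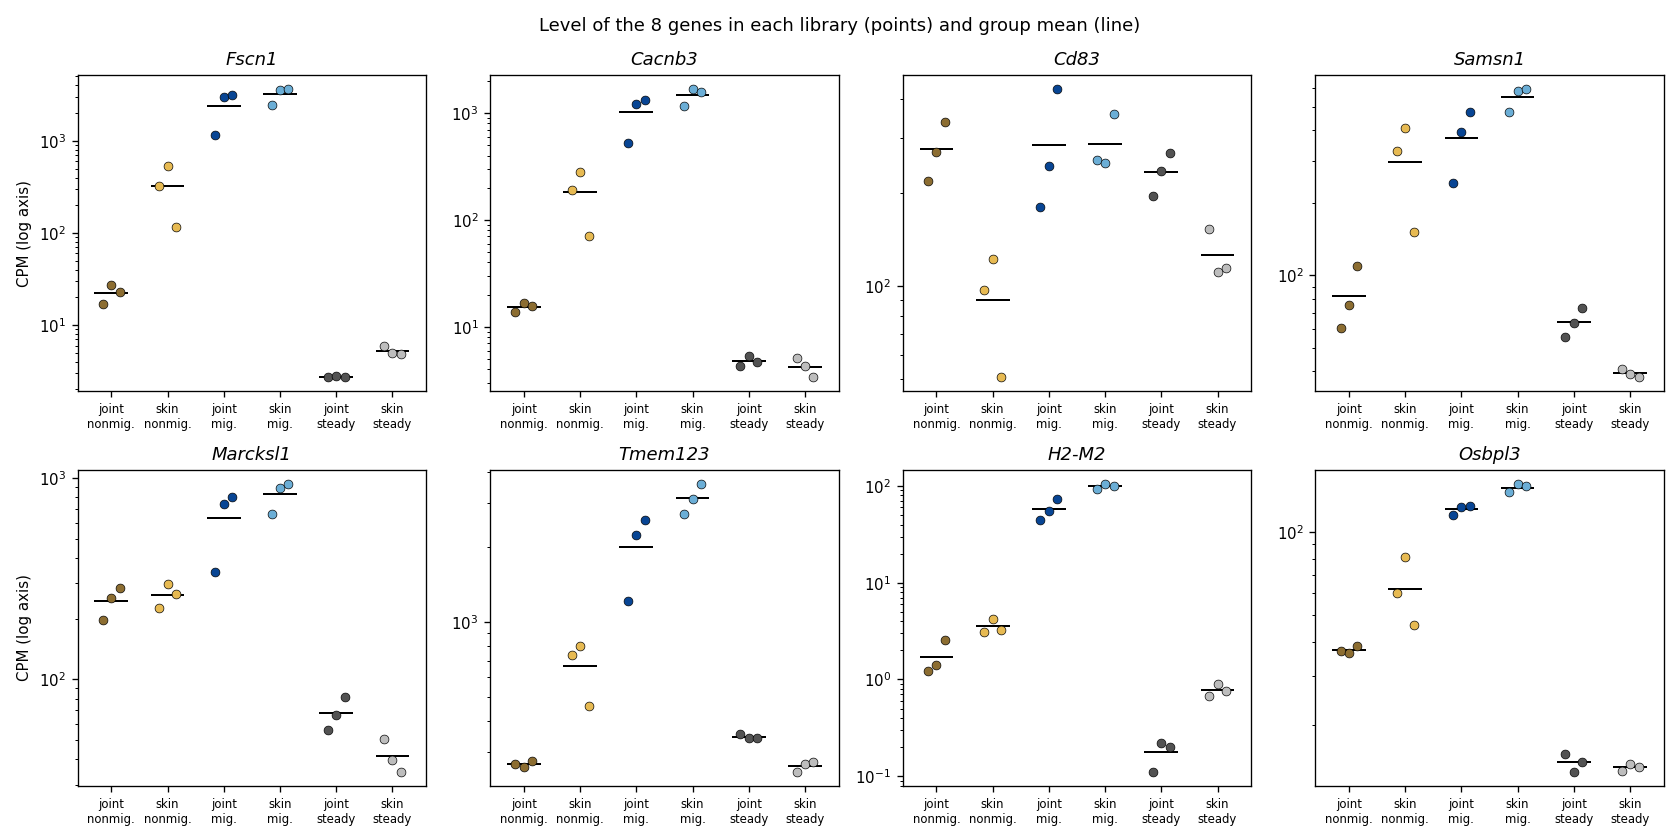
CPM of each gene (y, log axis, with its own range in each panel) in the 6 groups (x); points are the 3 libraries of a group and lines their mean. Both migrated groups lie above the other groups for every gene except Cd83, where both overlap with joint nonmigrated cells and the joint node, and Samsn1, where joint migrated cells alone overlap with skin nonmigrated cells.

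Migrated cells from the joint were then compared with the cells that stayed there. The threshold for a call was an adjusted p of 0.001 together with a change of more than 1 log2 unit either way, and 21.4% of the 16777 genes tested were called in this comparison, 1476 higher and 2110 lower in migrated cells. Of the 8 genes, 6 were called higher and none lower, which describes the choice of genes. Fscn1 differed by 6.77 ± 0.61 (log2 fold change ± SE; 109-fold), Cacnb3 by 6.05 ± 0.53 (66.5-fold) and H2-M2 by 5.08 ± 0.28 (33.7-fold). Tmem123 differed 7.49-fold, Samsn1 4.53-fold and Osbpl3 3.23-fold. The remaining pair were Marcksl1, at 1.37 ± 0.28, and Cd83, at 0.05 ± 0.35, whose direction turned to -0.36 without joint migrated replicate 3. The median of the 8 was 2.54, against 0.018 over all genes tested.

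In skin, the same contrast called 20.9% of genes, and again 6 of the 8 were called higher and none lower. H2-M2 differed by 4.82 ± 0.28 (28.2-fold). Fscn1 differed by 3.31 ± 0.52 (9.90-fold) and Cacnb3 by 3.02 ± 0.46 (8.11-fold), while Tmem123 differed 4.70-fold, Marcksl1 3.15-fold and Osbpl3 2.32-fold. Cd83, at 1.67 ± 0.36, and Samsn1, at 0.89 ± 0.35, were not called. Without skin nonmigrated replicate 1, 3 of the 8 were called (H2-M2, Osbpl3 and Tmem123), and where only the 6 skin libraries were fitted, 3 were also called (H2-M2, Marcksl1 and Tmem123). At both sites this comparison went with fewer neutrophil (6 of 6 markers called lower) and monocyte and macrophage transcripts (6 of 7 called lower) and with more B cell transcripts (3 of 5 markers called higher in joint, 5 of 5 in skin). T cell markers were called higher in joint (4 of 4) but not in skin (0 of 4). Of the 5 markers of type 2 conventional dendritic cells, 3 were called lower and 1 higher at each site.

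**Figure D2:**
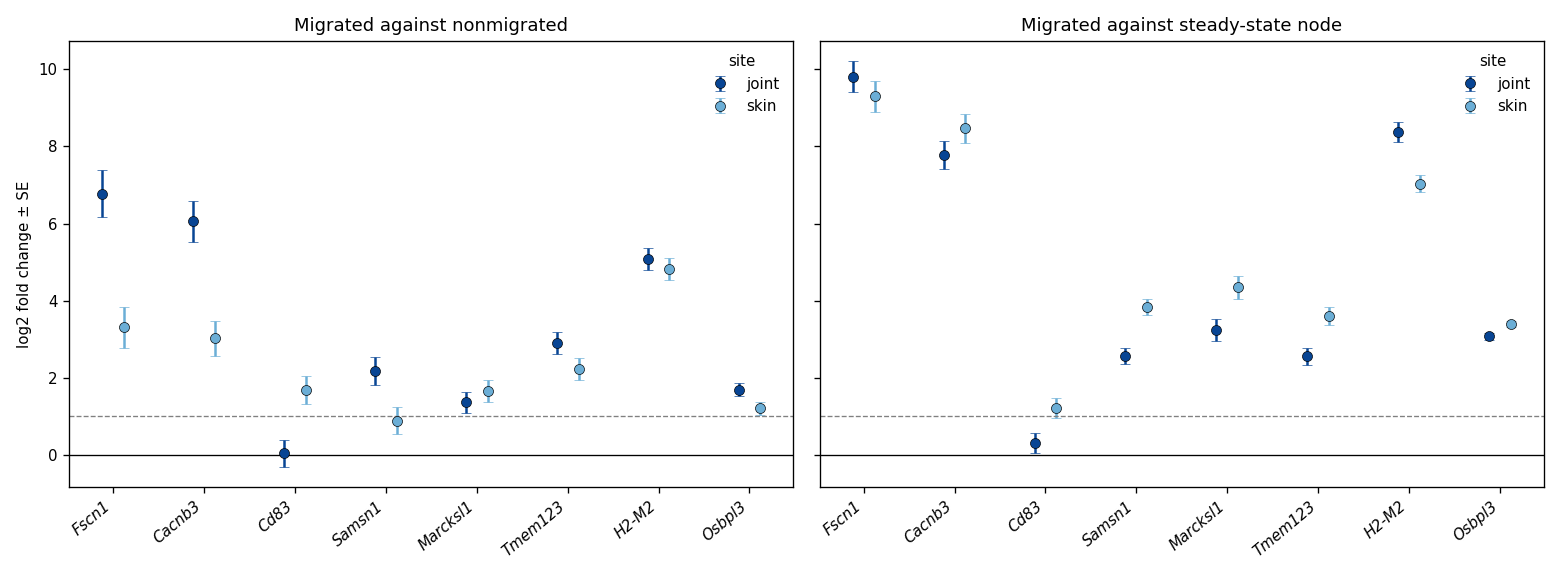
Log2 fold change with its SE (y) of each gene (x) for migrated against nonmigrated cells (left) and against the steady-state node (right), in joint (dark) and skin (light); the dashed line is at 1. On the left Fscn1 is at 6.77 in joint and 3.31 in skin and H2-M2 at 5.08 and 4.82, and in joint Cd83 lies nearest to 0 in both panels.

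The cells that stayed in the tissue were then compared between sites. Between joint and skin nonmigrated cells, 3.05% of genes were called, and of the 8 genes Fscn1 and Cacnb3 were called lower in joint, 14.7-fold and 11.8-fold. Samsn1 was 3.63-fold, Tmem123 2.49-fold, H2-M2 2.06-fold and Osbpl3 1.67-fold lower in joint, and Marcksl1 differed by -0.10 ± 0.28 (log2), none of them called. Cd83 went the other way, by 1.62 ± 0.36 (3.06-fold higher in joint, not called). This count rested on single libraries: without skin nonmigrated replicate 1 or 2, or any one of the joint nonmigrated replicates, no gene of the 8 was called, and without skin nonmigrated replicate 3, 4 were (Fscn1, Cacnb3, Samsn1 and Tmem123). Zbtb46 was at 4.83 ± 0.852 CPM (SD, n = 3) in joint and 19.4 ± 5.56 in skin nonmigrated cells, a log2 difference of -2.01 ± 0.32 (adjusted p = 0.00125, not called). Among the other marker lists, B cell markers were called higher in joint for 5 of 5 (median log2 difference 5.27) and neutrophil markers for 2 of 6 (median 2.75), while 1 of 2 Langerhans cell and 2 of 5 non-leukocyte markers were called lower. The part of these cell types in the values of the 8 genes was not tested.

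Between migrated cells from joint and from skin, 0% of genes were called with edgeR's quasi-likelihood test. At an unadjusted p under 0.05 there were 2770 of 16777 genes, and the DESeq2 Wald test called 183. None of the 8 genes was called with either tool. H2-M2 was at -0.78 ± 0.23 (log2, joint against skin), Tmem123 at -0.64 ± 0.27, Samsn1 at -0.57 ± 0.35, Cacnb3 at -0.53 ± 0.43 and Fscn1 at -0.41 ± 0.48. Cd83, at -0.01 ± 0.35, took either sign among the alternatives. Without joint migrated replicate 1, Tmem123 stood at -0.37 and Marcksl1 at -0.08 in place of -0.39. For H2-M2, Tmem123 and Osbpl3 the 3 joint libraries all lay below the 3 skin libraries. Over all 15948 genes tested in both fits, 28.8% did not overlap between these groups, 2268 lower and 2329 higher in joint, so that 3 of 8 is near the background.

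The change with migration was compared between sites by an interaction term, called for 0.119% of genes (20 genes) and for none of the 8. At an unadjusted p under 0.05 there were 4407 genes, and DESeq2 called 650, among them Fscn1 and Cacnb3. The migration change in joint exceeded that in skin by 3.47 ± 0.69 (log2) for Fscn1 and by 3.03 ± 0.62 for Cacnb3, and the difference was -1.63 ± 0.50 for Cd83. For H2-M2 the difference was 0.26 ± 0.36 and for Marcksl1 -0.29 ± 0.39, within an SE or less of 0. Without skin nonmigrated replicate 3, 2 of the 8 were called, again Fscn1 and Cacnb3.

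To set the genes against the dendritic cells in each library, each CPM was divided by the mean CPM of Zbtb46, a transcription factor of conventional dendritic cells, and Flt3, the receptor for their growth factor. These ratios are descriptions, and both markers were called higher in migrated cells at both sites, while Itgax, the third of the list, was called lower. The Fscn1 ratio was 13.7 ± 0.921 (SD, n = 3) in joint migrated and 14 ± 0.842 in skin migrated cells, and 1.3 ± 0.226 in joint nonmigrated, 0.726 ± 0.0776 in the joint node and 1.19 ± 0.0709 in the skin node. In skin nonmigrated libraries it was 8.5, 10.3 and 2.82, between the others. Cacnb3 did the same, at 5.85 ± 0.144 and 6.42 ± 0.378 in migrated cells against 0.917 ± 0.119 in joint nonmigrated cells. H2-M2 was also higher per marker in migrated cells, at 0.362 ± 0.112 (joint) and 0.442 ± 0.0534 (skin) against 0.106 ± 0.0564 and 0.0809 ± 0.00138 in tissue.

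The other 5 genes had no higher mean ratio in migrated than in nonmigrated cells. The Tmem123 ratio was 11.9 ± 1.26 and 13.8 ± 0.836 in joint and skin migrated cells and 16.2 ± 3.09 and 15.3 ± 4.09 in the nonmigrated ones. Marcksl1 was at 3.65 ± 0.0672 and 3.61 ± 0.0688 in migrated cells and at 14.7 ± 3.79 and 6.03 ± 0.326 in nonmigrated cells. Osbpl3, Samsn1 and Cd83 likewise had their lowest mean ratios in the migrated groups. In the nodes at steady state, where Zbtb46 and Flt3 averaged 1.77 to 1.81 and 5.87 to 7 CPM, Cd83 was at 61.8 ± 16 (joint) and 28.7 ± 3.57 (skin) and Tmem123 at 91.2 ± 10.9 and 61 ± 9.93. How the genes group by these ratios depends on the divisor. Itgax, left out of it, was at 199 ± 49 CPM in joint nonmigrated and 81.4 ± 10.7 in joint migrated cells. In skin it was at 232 ± 34 and 84 ± 9.94. Each of the 5 genes had a higher mean CPM in migrated cells, so its mean level relative to that of Itgax alone was higher there.

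**Figure D3:**
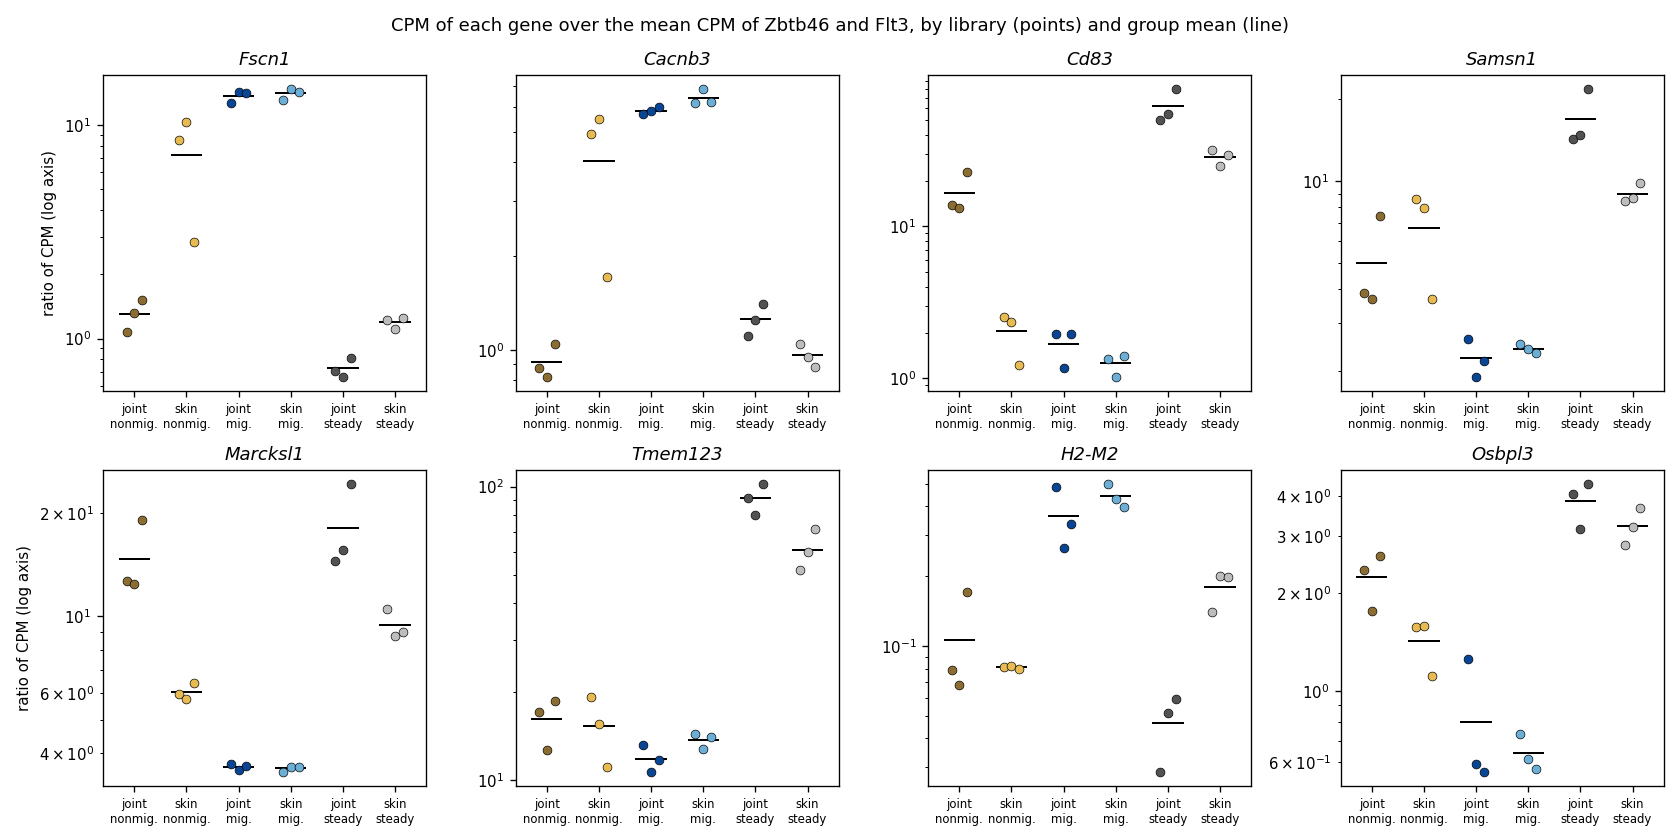
CPM of each gene divided by the mean CPM of Zbtb46 and Flt3 in the same library (y, log axis, own range in each panel) in the 6 groups (x); points are libraries and lines group means. Fscn1, Cacnb3 and H2-M2 have their highest mean ratios in migrated cells, and the other 5 genes have theirs in the joint steady-state node.

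Against the libraries labelled as steady-state nodes, 7 of the 8 genes were called higher in the migrated cells of inflamed mice at each site, where 15.9% (joint) and 25.1% (skin) of 17107 genes were called. Since it is not settled whether the steady-state libraries hold photoconverted cells, these folds compare the libraries as labelled. Cd83 was not called, at 0.32 ± 0.26 in joint (log2), where the groups overlapped, and at 1.22 ± 0.27 in skin, where all 3 migrated libraries lay above the node libraries. Fscn1 was 894-fold higher in joint and 628-fold in skin, Cacnb3 218-fold and 353-fold, and H2-M2 330-fold and 130-fold. The H2-M2 fold in joint rests on 5 to 9 counts a library in the joint node, close to the floor, so its size is uncertain. Marcksl1 was 9.44-fold and 20.3-fold, Osbpl3 8.43-fold and 10.5-fold, Samsn1 5.92-fold and 14.3-fold, and Tmem123 5.92-fold and 12.1-fold higher. Conventional dendritic cell markers were called higher (3 of 3) and B cell markers lower (5 of 5) at each site. Monocyte and macrophage markers were called higher for 6 of 7 in skin (median log2 difference 3.03) and 0 of 7 in joint, and neutrophil markers lower for 5 of 6 in joint (median -3.75) and 0 of 6 in skin. Both plasmacytoid dendritic cell markers were called lower in skin, and in joint 1 was called higher and 1 lower. The part of these cell types in the values of the 8 genes was not tested. Between the joint and the skin node 1.44% of genes were called and none of the 8. At an unadjusted p under 0.05 there were 3708 genes, and DESeq2 called 493, H2-M2 among them, which edgeR also called at an adjusted p of 0.05. H2-M2 differed most, by -2.13 ± 0.33 (log2; 4.39-fold lower in joint), followed by Fscn1 at -0.93 ± 0.32. These nodes differed in neutrophil transcripts, at 398 to 791 CPM in joint and 10.7 to 17.5 CPM in skin, with 6 of 6 markers called.

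A list of 54 companions, genes reported with dendritic cell maturation and migration, of which 52 were tested, was read in the same fits. The list was chosen with earlier results of these data known. Its counts, medians and adjusted p-values in every comparison are therefore descriptions, not independent evidence. In the joint 24 were called higher and 2 lower in migrated than nonmigrated cells, and in skin 17 higher and 4 lower. Their median log2 fold changes were 1.97 and 1.15, beside 0.018 and 0.009 over all genes tested. By group, the other migratory dendritic cell transcripts were called higher most often, 11 of 14 in joint and 10 of 14 in skin. Apol7c, an apolipoprotein L gene, rose 154-fold in joint (edgeR with Benjamini-Hochberg adjustment, adjusted p = 1.32e-06) and 27.7-fold in skin (9.85e-06). Slco5a1, an organic anion transporter gene, rose 98.1-fold and 29.5-fold (1.1e-06 and 4.62e-06), and Nudt17, a nudix hydrolase gene, 75.8-fold and 23.9-fold (4.63e-06 and 2.21e-05). Adcy6, an adenylate cyclase, rose 45.5-fold in joint (4.92e-06).

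Of the homing and motility genes, 3 of 5 were called higher in joint and 2 in skin, and 1 lower at each. Ccr7, the receptor that guides cells into lymphatics, rose by 4.87 ± 0.56 (log2, adjusted p = 2.34e-05) in joint, and in skin stood at 2.16 ± 0.49 (adjusted p = 0.00299), which is not past the threshold used. It was at 1172 ± 500 CPM (SD, n = 3) in joint migrated and 1102 ± 221 in skin migrated cells, and, unlike Fscn1, also at 609 ± 155 and 494 ± 61.4 in the joint and skin nodes, a receptor that naive lymphocytes are also known to carry. The Fscn1 to Ccr7 ratio was accordingly 2.05 ± 0.464 and 2.99 ± 0.845 in migrated cells but 0.00474 ± 0.00123 and 0.0106 ± 0.000237 in the nodes.

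The counts of the remaining companion groups stand beside 21.4% (joint) and 20.9% (skin) of all genes called, and several were close to that background. Of the 10 costimulatory and coinhibitory ligands, 3 were called higher and 1 lower in joint, and 1 and 1 in skin. Of the 8 chemokines and cytokines tested, 2 were called higher in joint, and 1 higher and 1 lower in skin (25.0% at each site). The gene called lower was Il6, which was 44.7-fold lower in skin migrated than in skin nonmigrated cells (adjusted p = 0.000124). In the latter it was at 98.3 ± 69.4 CPM. The part of cell types in this difference was not tested. NF-kB and survival genes were called higher for 3 of 10 in joint and 2 of 10 in skin, with 1 lower in skin (30.0% called at each site), and immunoregulatory genes for 2 of 5 and 1 of 5.

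Between joint and skin nonmigrated cells 6 of 52 companions (11.5%) were called, each lower in joint, beside 3.05% of all genes, of which 319 were lower and 192 higher. Cd200 and Cd274, ligands of inhibitory receptors, were 11.1-fold (adjusted p = 0.000154) and 9.60-fold lower (0.000232), Adcy6 8.27-fold (0.000872) and Tbc1d4, a Rab GTPase-activating protein, 6.64-fold (0.000749). This number ran from 1 to 18 as single libraries were left out, 1 without joint nonmigrated replicate 2 and 18 without skin nonmigrated replicate 3. Cd274 was at 2788 ± 1060 CPM in skin nonmigrated, 291 ± 30.3 in joint nonmigrated and 450 ± 56.8 in skin migrated cells, an order not seen in any of the 8 genes. Between joint and skin migrated cells 0 of 52 companions were called with edgeR, 8 had an unadjusted p under 0.05, and DESeq2 called 0. The interaction called 0 of 52 with edgeR, against 23 at an unadjusted p under 0.05 and 5 with DESeq2.

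Against the steady-state nodes 40 companions were called higher in joint and 45 in skin, and none lower, with medians of 2.81 and 3.75. The 4 largest differences in joint were Ccl22, a chemokine made by mature dendritic cells, at 1080-fold (adjusted p = 4.7e-09), Apol7c at 673-fold (9.47e-09), Il12b, a subunit of interleukin-12 and interleukin-23 (1.65e-07), and Zmynd15 at 284-fold (4.7e-09). In skin they were Il12b (7.22e-08), Ccl22 (447-fold, 1.96e-09), Anxa3 (361-fold, 1.25e-09) and Zmynd15 (357-fold, 1.29e-09). No fold is given for Il12b, which had at most 3 counts in any steady-state library and was at 22.8 ± 14.7 CPM in joint migrated and 27.7 ± 6.27 CPM in skin migrated cells. Between the joint and skin nodes 0 companions were called with edgeR, 15 had an unadjusted p under 0.05, and DESeq2 called 2.

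**Figure D4:**
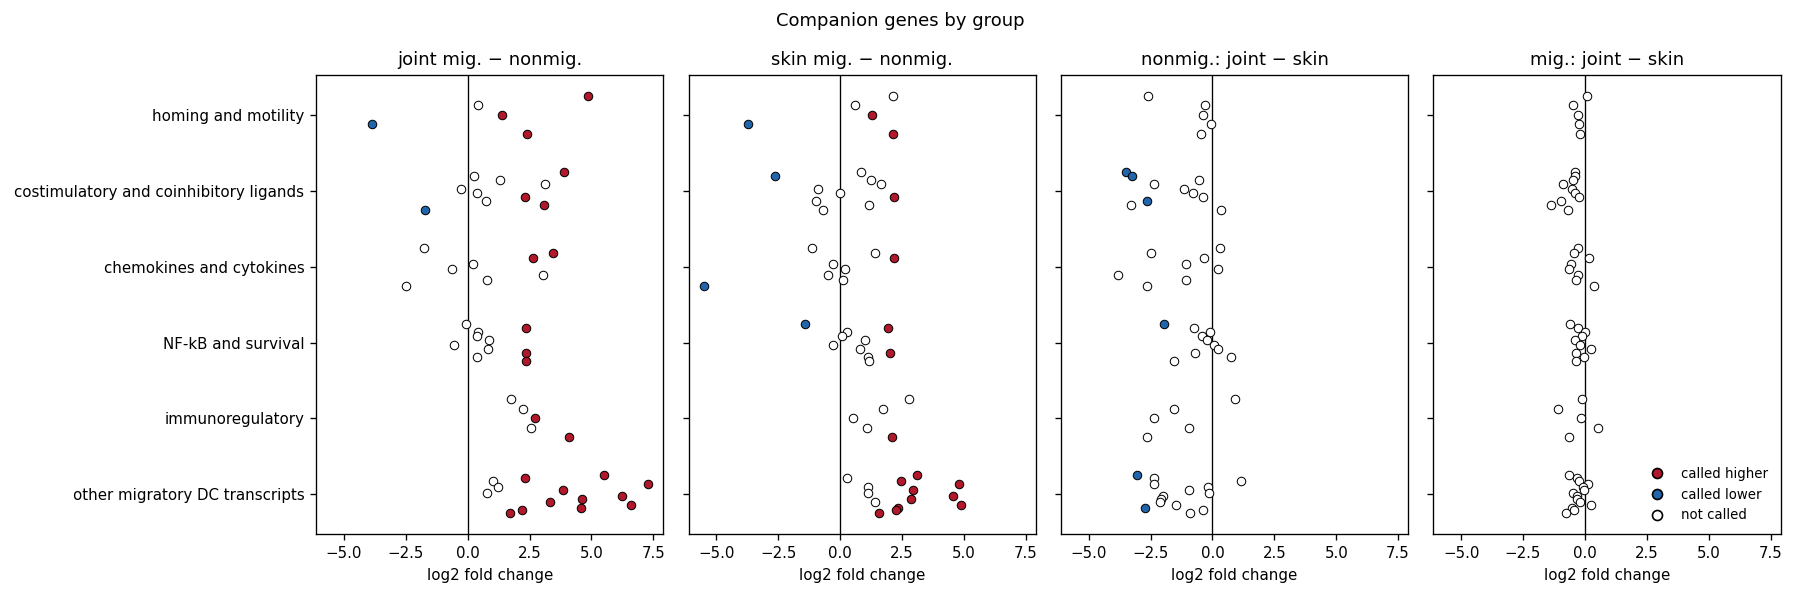
Log2 fold change (x) of the 52 tested companions, by functional group (y), in 4 comparisons; filled points were called higher (red) or lower (blue). Calls lie mostly to the right in the migrated against nonmigrated panels, 6 lie to the left between nonmigrated cells of joint and skin, and there is none between migrated cells.

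The families of the genes were set beside them, to see which relatives were present. Of 25 paralogs 17 were tested. Cacnb1, another calcium channel β subunit, rose with Cacnb3, though far less, by 2.00 ± 0.17 in joint (log2, adjusted p = 3.48e-06) and 1.97 ± 0.18 in skin (4.02e-06), from 10.9 and 12.1 CPM in tissue to 43.4 and 47.5 CPM. Cacnb3 was at 255 and Cacnb1 at 9.58 CPM per kilobase in joint migrated cells, while in the joint node they were at 1.2 and 2.72, so that the order of the pair was reversed. Sash3 and Sash1 are relatives of Samsn1. Sash1 fell by 6.35 ± 0.43 in joint (7.36e-07) and 5.91 ± 0.43 in skin (1.06e-06), and Sash3 differed by 0.94 ± 0.14 and 0.81 ± 0.14, under the fold threshold.

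Marcks, the relative of Marcksl1, was at 127 ± 19.6 CPM in joint nonmigrated, 358 ± 35.5 in skin nonmigrated, 208 ± 92.5 in joint migrated and 361 ± 68.9 in skin migrated cells, and differed with migration by 0.71 ± 0.28 (adjusted p = 0.0497) and 0.01 ± 0.28 (0.982), neither called. H2-M3, the H2-M2 relative that presents formylated peptides, lay between 46 and 69.9 CPM on average in every group, and differed by -0.56 ± 0.21 (0.0421) and -0.61 ± 0.22 (0.0303). Among the Osbpl3 relatives, Osbpl5 rose in joint (2.74 ± 0.32, 2.82e-05), Osbpl1a fell at both sites (-2.04 ± 0.20, 7.72e-06 and -1.44 ± 0.20, 0.000104), Osbpl11 fell in joint (-1.40 ± 0.18, 5.14e-05), and Osbpl8 and Osbpl9 fell in skin (-1.30 ± 0.17, 7.45e-05 and -1.56 ± 0.11, 9.48e-07). Osbpl3 itself was called higher at both sites, and none of its tested relatives was. Osbpl3 was selected on measured values of these same libraries, so this contrast describes that choice and cannot set it apart from its family. In skin, Osbpl3 was not called where only the skin libraries were fitted.

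The genes with the most similar profile were found by the mean absolute difference, over the 6 group means of log2(CPM + 1) centred on their own mean, from the average of the 8. Among 8591 other genes whose group means ranged over more than 1 log2 unit, the median difference was 1.830. Zbtb46, the conventional dendritic cell factor, was closest, at 0.137, followed by Mab21l3 (0.230), Gnb4, a G protein β subunit (0.233), Eno2, the neuronal enolase (0.246), and Tmtc2 (0.248). Then came Efna2 (0.268), Bcl2l14 (0.290), Sned1 (0.297), Gpr4 (0.302) and the prion protein gene Prnp (0.302). Eno2 was on the companion list, and Zbtb46 among the markers. Of the 8 genes themselves Marcksl1 (0.512) and Samsn1 (0.572) were nearest to their own average, and Fscn1 (1.919), by its wider range, and Cd83 (1.761), by its flat profile, were farthest.

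**Figure D5:**
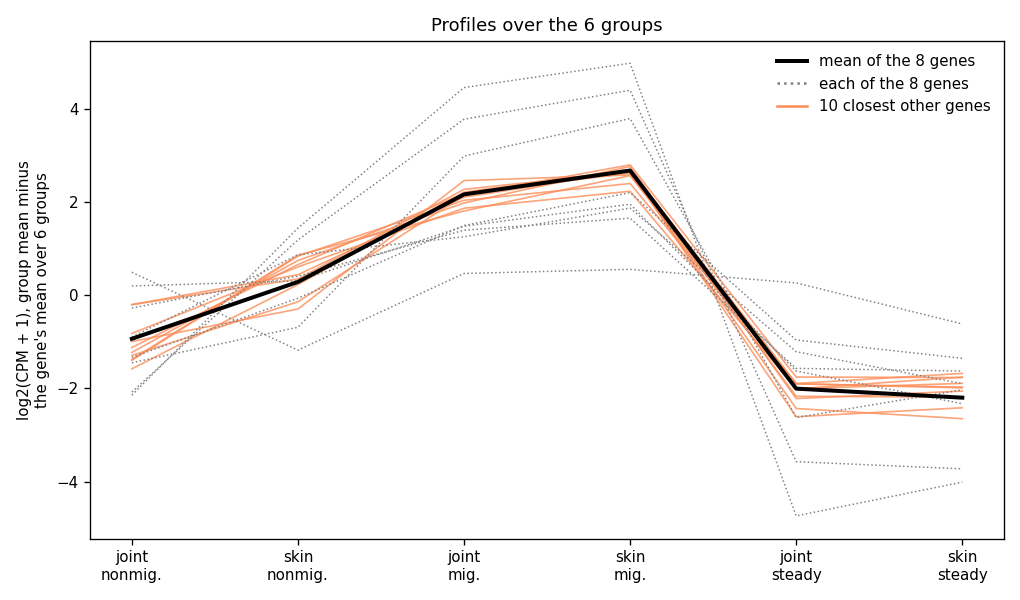
Group mean of log2(CPM + 1) minus the gene's mean over the 6 groups (y) by group (x), for the average of the 8 genes (black), each of the 8 (dotted) and the 10 closest other genes (orange). The average runs from -0.93 and 0.29 in joint and skin nonmigrated cells to 2.17 and 2.68 in migrated cells and -2.00 and -2.20 in the nodes.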

How the data were processed

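Per the labels, the deposited values are raw read counts per gene: the authors trimmed paired reads from sorted cells, aligned them to mm10 with TopHat2 and made the counts with HTSeq and Ensembl models in its default mode, which drops reads that map to several places. The paper gives the settings of HTSeq as the default ones and names no strand option, and whether the library preparation kept strand is not given. Among the named companions, exons of Zmynd15 overlap those of Cxcl16, and exons of Nudt17 those of Pias3, on the opposite strand. Exons of Adcy6, Cd274 and Anxa3 also overlap those of another annotated gene. What these overlaps do to the counts was not tested. HTSeq's 5 summary lines (11.3% to 15.1% of a library's total) were left out. Symbols came from GENCODE M21, matched for 49326 of 49585 genes.

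Under R 4.3.3, edgeR 4.0.16 gave the main tests: TMM scaling, genes kept by filterByExpr (minimum count 10) and the quasi-likelihood F test. The 12 inflamed libraries were fitted together (16777 genes) and so were the 12 node libraries (17107 genes), with group as the factor and Benjamini-Hochberg adjustment over all genes. The steady-state comparisons share the migrated libraries with the others. Calls needed an adjusted p below 0.001 and a change beyond 1 log2 unit. The SE was taken from the F statistic, as the size of the log2 change over √F. The fit was tested on simulated data. Levels are TMM CPM over 18 libraries, and per-kilobase levels use the exon length. DESeq2 1.42.0 and the settings given at the end were alternatives. Replicates of the inflamed groups are separate pools of mice, and for the steady-state groups p-values measure only the spread between the deposited samples. No replicate pair agreed within sampling noise (lowest chi-square per degree of freedom 16.2). Tables and figures used Python 3.11.15 and matplotlib 3.10.9.

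The 8 genes and the companion, paralog and marker lists were chosen with earlier results of these data known. Companions are named where they are among the 4 called with the largest absolute log2 fold change in a comparison, plus Ccr7; paralogs where they or their relative exceed 1 CPM; and the 10 genes of closest profile.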

Additional observations from a re-analysis of the deposited data

How the results depend on the processing

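Of the comparisons, that between joint and skin nonmigrated cells depended most on the processing. There 2 of the 8 genes and 6 companions were called, against 6 and 25 at an adjusted p under 0.05, 5 and 18 with DESeq2's Wald test, 4 and 17 without a low-count filter, 4 and 17 with all 18 libraries fitted, 0 and 0 with only those 6 libraries fitted, and 0 to 4 and 1 to 18 with 1 library left out. For the interaction, 0 and 0 became 2 and 11 at 0.05, 2 and 5 with DESeq2, 1 and 2 without the filter, 0 and 3 with all 18 libraries, and 0 to 2 and 0 to 2 with 1 library left out. Between the steady-state nodes, 0 and 0 became 1 and 3 at 0.05, 1 and 2 with DESeq2, 1 and 5 without the filter, and 0 and 2 with only the groups compared. Between migrated and nonmigrated skin cells, 6 of the 8 genes and 21 companions were called, against 33 companions at 0.05, 3 of the 8 with only the groups compared, and 3 to 6 with 1 library left out. The share of all genes called rose at 0.05 as well. It was 14.3% between nonmigrated cells, 6.13% for the interaction, 3.89% between the steady-state nodes and 35.4% between skin migrated and nonmigrated cells. DESeq2 called 1553 of 19441 genes between nonmigrated cells, 650 of 17798 for the interaction and 493 of 17851 between the nodes. Shares under the other settings are not given here, so these counts are not a result about the 8 genes. The cause of the changes was not tested.

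Whether tissue and node libraries of the same replicate number came from the same mice is not given in the sources used here. Correlations of same-numbered deviations ran from 0.021 to 0.254 (joint) and 0.073 to 0.173 (skin) between tissue and node, and not every pair passed 0.1. Pairs with different numbers were not computed, so this check cannot decide whether the libraries are paired. With the replicate block within site, 0 of the 8 genes and 2 companions were called between nonmigrated groups and 1 of the 8 between the steady-state nodes.

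The other 174 recomputed counts stayed within 1.5 times the first value, and no called difference among the 8 genes changed direction in any setting run. Of 920 recomputed values of single genes, 20 moved by more than their spread, each with 1 library left out. The 920 include 64 from the setting with an adjusted p under 0.05, which uses the same fit, so these could not move.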
